A study of Mus musculus with 16 samples.

Results

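Interferon response genes were followed across 4 genotypes of mouse heart endothelium. The set held 41 genes of the 43629 in the deposited table, chosen by name as genes that interferons are known to induce or that serve antigen presentation, and all 41 were found under their symbols. The rule used symbols alone, and all 41 passed the filter on low values that left 23816 genes for testing. The cells were primary microvascular endothelial cells of the heart, which had been captured with CD31-coated magnetic beads on day 6 after an intraperitoneal tamoxifen injection in C57BL/6J mice aged 8 to 10 weeks. The 4 groups were a double knockout of Klf2 and Klf4 in endothelial cells (DKO), a knockout of Klf2 (K2KO), a knockout of Klf4 (K4KO) and a Cre control, with 4 samples each and 2 mice pooled per sample. Klf2 and Klf4 encode Krüppel-like transcription factors that laminar blood flow induces in endothelium. All 4 groups received tamoxifen, which per the series' design text was to trigger deletion in endothelial cells, and the control carried Cre too. The sources used here do not name the promoter that drove Cre.

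Interferons are secreted proteins that bind receptors on the cell surface and, through JAK kinases and STAT transcription factors, switch on a large set of genes. Type I interferons act mainly through a complex that holds STAT2 and IRF9 and binds the interferon-stimulated response element, whereas interferon gamma acts mainly at gamma-activated sites and through IRF1. The products block viral replication, disrupt the vacuoles of intracellular pathogens, present peptides on MHC class I and attract lymphocytes. Endothelial cells express many of these genes at rest and raise them when exposed to interferon.

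The members lay on 15 chromosomes, with 7 on chromosome 5, 6 on chromosome 11 and 5 each on chromosomes 3 and 17. Promoter windows of RefSeq (GRCm38.p6, 250 bases before to 50 bases after the start, 300 bases in all) were matched by symbol for 32 of the 41 members. The windows of Gbp4, Gbp6, Iigp1, Mx1, Mx2, Oas2, Parp14, Usp18 and Zbp1 were not used here. The core of the interferon-stimulated response element, searched as GAAA, any 2 bases and GAAA on both strands, occurred in 18 of the 32 members (56.2%) and in 3.99% of 27025 genes with a window. The gamma-activated site, searched as TTCNNNGAA (its own reverse complement), occurred in 10 of 32 members (31.2%) and in 9.55% of genes. The CACCC box that Krüppel-like factors bind, searched as CCACCC on both strands, occurred in 16 of 32 members and in 34.0% of genes. Each motif was searched separately, so matches may overlap, and they are a description of letters, not of binding. Below are 5 windows, each 5′ to 3′ on the gene's strand. They are shown because Psmb9, Gbp5 and Gbp2 fell, Cxcl10 rose and Isg15 did not pass the test in the DKO-labelled libraries, and because they differ in motif content. Capitals mark matches to the response element or to the gamma-activated site.
Psmb9: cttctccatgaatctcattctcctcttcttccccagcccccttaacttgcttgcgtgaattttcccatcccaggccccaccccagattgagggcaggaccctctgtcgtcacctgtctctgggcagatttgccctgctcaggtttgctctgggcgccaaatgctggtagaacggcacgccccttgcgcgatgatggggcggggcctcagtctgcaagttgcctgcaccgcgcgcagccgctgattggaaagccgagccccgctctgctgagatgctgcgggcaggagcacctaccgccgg
Gbp5: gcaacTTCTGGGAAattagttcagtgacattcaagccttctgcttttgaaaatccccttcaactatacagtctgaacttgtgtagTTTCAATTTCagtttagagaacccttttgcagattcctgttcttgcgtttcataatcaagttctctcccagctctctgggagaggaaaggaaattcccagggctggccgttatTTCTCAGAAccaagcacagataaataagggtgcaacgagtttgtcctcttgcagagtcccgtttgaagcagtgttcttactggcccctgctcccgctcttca
Gbp2: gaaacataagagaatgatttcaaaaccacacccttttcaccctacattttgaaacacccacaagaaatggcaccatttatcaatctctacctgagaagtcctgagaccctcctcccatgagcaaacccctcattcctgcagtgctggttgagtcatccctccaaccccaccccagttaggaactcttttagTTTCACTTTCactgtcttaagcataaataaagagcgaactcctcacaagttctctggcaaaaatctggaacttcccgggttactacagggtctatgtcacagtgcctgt
Cxcl10: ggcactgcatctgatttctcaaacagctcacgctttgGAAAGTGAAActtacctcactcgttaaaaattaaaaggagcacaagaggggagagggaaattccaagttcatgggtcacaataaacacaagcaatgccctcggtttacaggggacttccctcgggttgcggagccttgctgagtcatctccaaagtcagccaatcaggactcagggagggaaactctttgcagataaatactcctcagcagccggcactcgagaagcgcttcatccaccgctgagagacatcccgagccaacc
Isg15: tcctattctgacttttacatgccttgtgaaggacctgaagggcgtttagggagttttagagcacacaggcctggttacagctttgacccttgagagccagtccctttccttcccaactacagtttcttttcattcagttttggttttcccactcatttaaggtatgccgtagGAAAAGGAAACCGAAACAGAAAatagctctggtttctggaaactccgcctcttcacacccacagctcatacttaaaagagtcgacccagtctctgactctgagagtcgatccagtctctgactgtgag

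The Psmb9 window (chr17:34187281-34187580, minus strand) held neither motif in these letters and a CCACCC match 174 bases before the start. It shares 275 bases with the window of Tap1, which is read the opposite way from a start 226 bases off. The Gbp5 window (chr3:142496684-142496983, plus strand) held a response element on the other strand at -165 and gamma-activated sites at -245 and -52. The Gbp2 window (chr3:142620413-142620712, plus strand) held a response element on the other strand at -59 and a CCACCC match at -84. The Cxcl10 window (chr5:92348840-92349139, minus strand) held a response element at -213. The Isg15 window (chr4:156200769-156201068, minus strand) held 3 response element matches, at -78, -72 and -66, which overlap one another. Among members with a window, the response element was present in 9 of 13 that fell in the DKO-labelled libraries against controls, in Cxcl10, which was the single riser with a window, and in 8 of 18 that did not pass the test.

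The values are scaled counts, gene read counts that the authors had divided by 1 factor per library. Depth was 25.3 to 106.0 M reads for DKO libraries, 32.4 to 51.0 for K2KO, 21.1 to 25.4 for K4KO and 23.5 to 24.3 for control, so that 1 read was worth 0.305 to 1.46 scaled counts. The DKO and K2KO columns are numbered 2 to 5, unlike the labels, and a number after DKO or K2KO is the column's. Klf2 fell in K2KO to 3354 ± 203, against 7227 ± 2359 in control (SD, n = 4 each; log2 -1.06 ± 0.16, limma adjusted p = 0.00682). Klf4 in K4KO was 5819 ± 705, against 9691 ± 2466 in control (log2 -0.71 ± 0.15, adjusted p = 0.118), with all 4 K4KO libraries below all controls. In the libraries labelled DKO neither transcript fell against control (log2 0.36 ± 0.16 for Klf2 and -0.03 ± 0.15 for Klf4, adjusted p = 0.0881 and 0.923), so the group is called DKO-labelled here, and every direction below refers to that label. Counts over whole genes do not show a deleted exon. The endothelial markers Pecam1, Cdh5 and Kdr were high in every library, with summed counts of 12 endothelial markers of 337800 to 385500 in DKO-labelled libraries and 298000 to 372000 in control.

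RNA of other cells was present in all groups, and part of it moved with the DKO label. Summed over each list, cardiomyocyte markers (13 genes) stood at 52220 to 88790 scaled counts in DKO-labelled libraries against 232200 to 554600 in control, and 12 of 13 fell. Erythroid markers (7 genes) stood at 3955 to 6786 against 18160 to 23850, and 7 of 7 fell. Lymphocyte markers (18 genes) stood at 621.4 to 713.7 against 1371 to 1773, with 7 lower and 2 higher. Mural markers (10 genes) stood at 77030 to 94240 against 124000 to 133000, with 4 lower. Macrophage markers (16 genes) overlapped, at 4022 to 6881 against 4621 to 7596, with 4 lower and 2 higher. Fibroblast markers (10 genes) had 4 higher and 2 lower, endothelial markers (12 genes) 5 and 5, and markers of plasmacytoid dendritic cells (8 genes) 2 and 2. Beside these counts, 38.3% of all genes tested were called, 19.3% as lower and 19.0% as higher. Among genes with a mean of at least 100 the share called was 58.0%, with 24.5% lower and 33.5% higher. No marker of these lists was at 0 reads over a whole group. Their part in the results on the members was not tested, and in such bulk samples fewer cells of a type and less RNA per cell cannot be told apart.

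Library DKO 2 stood apart within its group for the members. It had the highest value of the 4 DKO-labelled libraries for 41 of 41 members, whereas it was highest for 28% of the 11315 tested genes with a mean of at least 100. Its median excess over the mean of the other 3 on the log2 scale was 0.49 for the members, from 0.11 for H2-D1 to 1.30 for Gbp4, and -0.0004 for those 11315 genes. Against the range of the 4 control libraries, DKO 2 lay below for 7 members, within for 17 and above for 17. The other 3 libraries lay below for 21, overlapped for 18 and lay above for 2. DKO 2 was the highest of its group for every member, so leaving it out lowers the group's level and favours positions below control. The share of all genes was not counted for these 3 libraries. With all 4 libraries, 7 members lay below all controls and 2 above, beside 18.1% and 18.9% of all genes tested. As the mean log2 level over the members, DKO 2 reached 11.48, the other 3 DKO-labelled libraries 10.81 to 11.02 and the controls 11.30 to 11.35. Lists of lymphocyte, macrophage and MHC class II markers in DKO 2 were within the range of the other 3 (mean log2 4.18 against 4.14 to 4.22, 7.78 against 7.49 to 8.12, and 7.70 against 7.31 to 7.72). The cardiomyocyte list stood at 10.33 in DKO 2 against 9.97 to 10.09 in the other 3, and its part in the members' values was not tested. The results below use all 4 libraries. Without DKO 2, 20 members fell and 2 rose against control, with a member median of -0.39, and the gained calls were Tap1 and Xaf1. That refit called 8756 of all genes, beside 9119 with all 4 libraries, and the median of all genes was -0.025. Of the members that did not pass the test, 4 turned sign without DKO 2, Oas1a to -0.03, Oasl2 to -0.05, Cxcl9 to -0.11 and Zbp1 to -0.05. Ifi44 stood at -0.42, Isg15 at -0.27, Ifit2 at -0.22 and Ifit3 at -0.20, and none of these 8 passed the test without it.

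**Figure D1:**
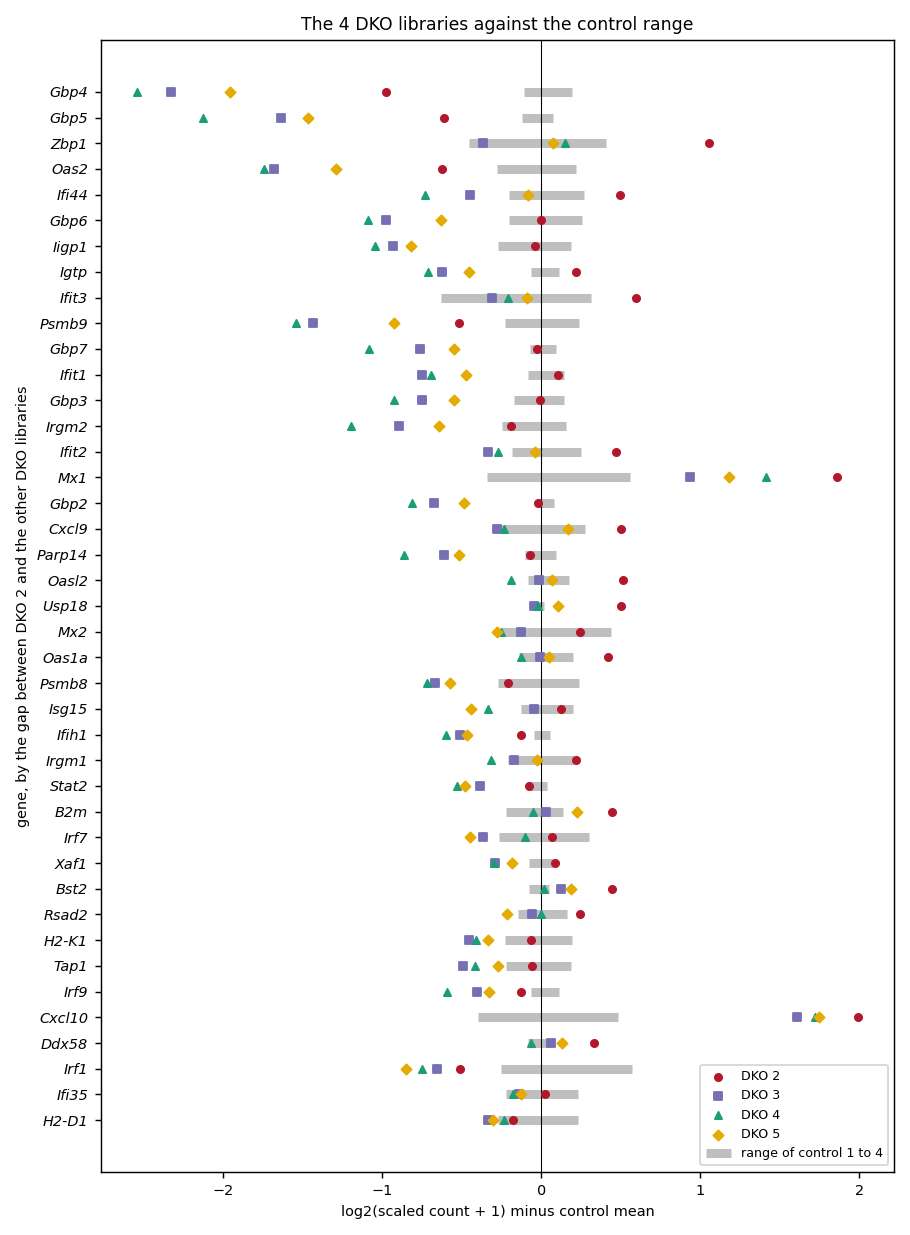
Each row is a member, ordered by how far DKO 2 lies above the other 3 DKO-labelled libraries. Points show log2(scaled count + 1) minus the control mean for the 4 DKO-labelled libraries and grey bars the range of the 4 control libraries. The red point of DKO 2 is the rightmost of the 4 in every row.

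Set against control, the DKO-labelled libraries address how the members stood in endothelium meant to lack both factors. Of the 41 members, 18 fell and 2 rose. All 6 guanylate-binding protein genes among the members fell, with Gbp4 at log2 -1.95 ± 0.21 and Gbp5 at -1.46 ± 0.19. The antiviral gene Oas2, the immunoproteasome subunit gene Psmb9 and the transcription factor gene Irf1 fell as well. The chemokine gene Cxcl10 and the antiviral GTPase gene Mx1 rose, and members often used as interferon markers, such as Isg15, Rsad2, Usp18 and Ifit3, did not pass the test. The members called were 48.8% of the 41, which lies between the 38.3% of all genes tested and the 58.0% of those with a mean of at least 100. By direction, 43.9% of the members fell, beside 19.3% of all genes (24.5% of those with a mean of at least 100), and 4.88% rose, beside 19.0% (33.5%). Their median log2 change was -0.26, and that of all genes tested was -0.03. With libraries scaled to the same median of all tested genes, which moved the median of all genes to 0.18, 7 members fell and 8 rose. The member median was then 0.0002, and 70.4% of all called genes were higher. Under quantile normalisation 22 members fell and 2 rose, and with the same total 21 and 2. By edgeR these counts were 20 and 2, and by DESeq2 17 and 2.

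**Figure D2:**
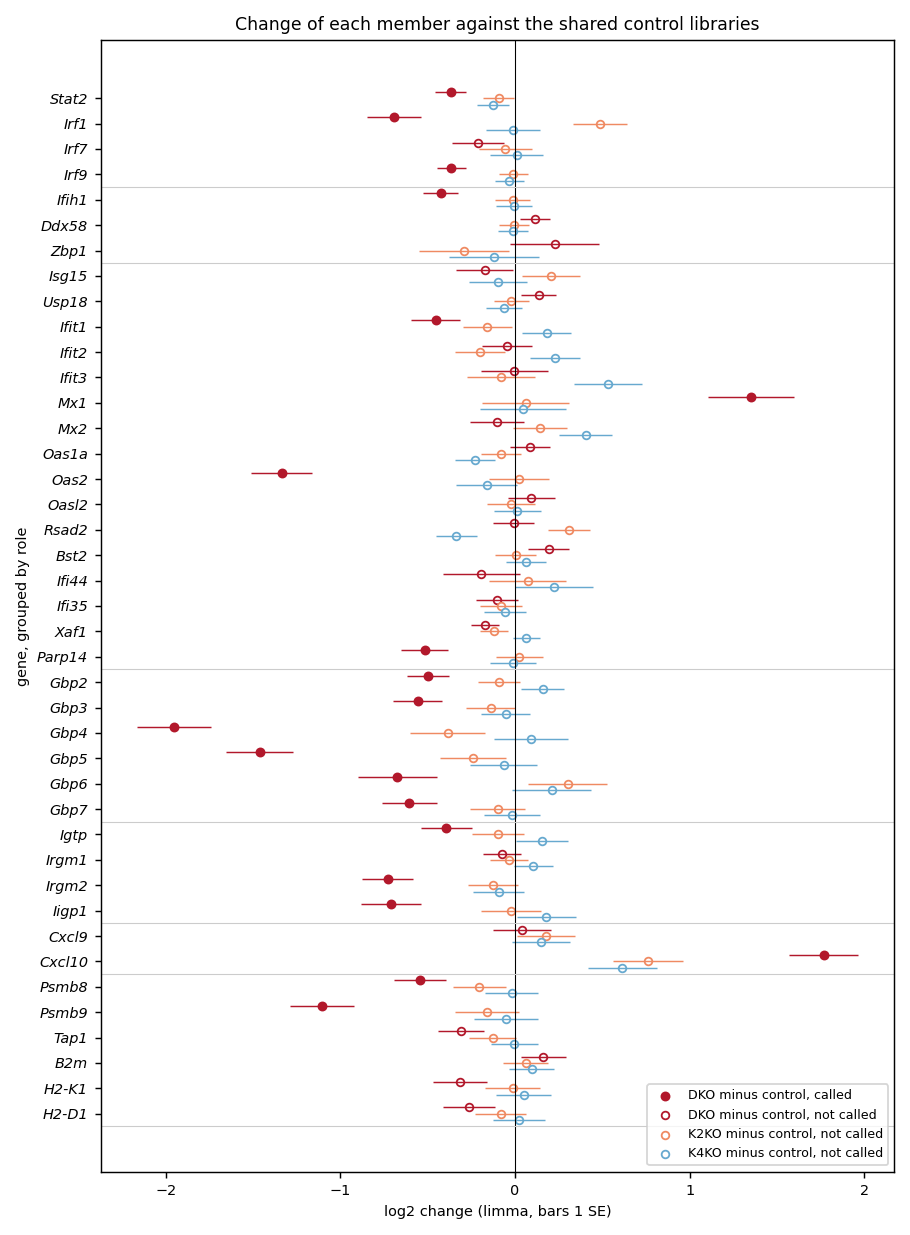
Log2 change of each member in DKO, K2KO and K4KO libraries against the 4 control libraries that all 3 comparisons share, with bars of 1 standard error from limma. Filled points passed the test, and all of them are DKO minus control, with Gbp4 at -1.95 and Cxcl10 at 1.77 as the ends of the range.

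Of the 4 transcription factors of the pathway, 3 fell. Irf1 encodes interferon regulatory factor 1, which drives many genes induced by interferon gamma. It had 9422, 8509, 7978 and 7429.7 scaled counts in DKO-labelled libraries 2 to 5, 19303, 18327, 20836 and 16932 in K2KO, 12665, 13709, 16876 and 10713 in K4KO and 12148, 11890, 19944 and 11260 in control. All 4 DKO-labelled libraries lay below every library of the other 3 groups, and control 3 stood far above the other controls. The fall against control was -0.69 ± 0.16 on the log2 scale (adjusted p = 0.00136). Irf9 encodes a DNA-binding partner of STAT2. It had 3518, 2904, 2556 and 3068 in DKO-labelled libraries, 3812, 3833, 3951 and 3712 in K2KO, 3714, 3769, 4008 and 3573 in K4KO and 3824, 3756, 4158 and 3683 in control, again with no overlap (log2 -0.36 ± 0.08, adjusted p = 0.00146). Stat2 had 3202, 2579.6, 2341 and 2423 in DKO-labelled libraries, 3108, 3077, 3289.9 and 3177 in K2KO, 2942, 3406, 3274 and 2792 in K4KO and 3419, 3188, 3468 and 3435 in control. DKO 2 reached the lowest control and the other 3 lay below all of them (log2 -0.37 ± 0.09, adjusted p = 0.00271). With libraries scaled to the same median of all tested genes, Irf9 and Stat2 no longer passed the test, at -0.10 each. Irf7, the factor that amplifies type I interferon, had 2444, 1812, 2176 and 1708 in DKO-labelled libraries, 2519, 1793, 2509 and 2246 in K2KO, 2619.6, 2586, 2549 and 1760 in K4KO and 2250, 2877, 2359 and 1939.5 in control. These groups overlapped (log2 -0.21 ± 0.15, adjusted p = 0.306).

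Of the nucleic acid sensors, 1 of 3 fell. Ifih1 encodes MDA5, a cytosolic sensor of long double-stranded RNA. It had 3731, 2866, 2693 and 2955 scaled counts in DKO-labelled libraries, 4093, 4150, 3709 and 4238 in K2KO, 3495, 3809, 4188 and 4876 in K4KO and 4095, 4046, 3959.8 and 4233 in control. DKO-labelled libraries lay below every control and overlapped the single knockouts (log2 -0.43 ± 0.10, adjusted p = 0.00235). Ddx58, which encodes the sensor RIG-I, had 3790 to 4989 in DKO-labelled libraries and 3742 to 4123 in control (log2 0.12 ± 0.09, adjusted p = 0.336). Zbp1, a sensor of left-handed nucleic acids, had 158 to 425 in DKO-labelled libraries and 149 to 272 in control (log2 0.23 ± 0.26, adjusted p = 0.553). Its highest value was again DKO 2.

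The 16 antiviral effectors and feedback genes were mixed, with 3 that fell, 1 that rose and 12 that did not pass the test. Oas2 encodes an oligoadenylate synthetase, which makes the second messenger that activates RNase L. It had 1838, 883, 844 and 1157 scaled counts in DKO-labelled libraries, 2971, 2718, 2606 and 3263 in K2KO, 2472, 2724, 2494 and 2449 in K4KO and 3088, 3298, 2335 and 2711 in control. Every DKO-labelled library lay below every other library (log2 -1.34 ± 0.17, adjusted p = 4.95e-06). Mx1 encodes a GTPase that blocks influenza viruses in mice with an intact allele, whereas C57BL/6 mice are known to carry a defective one, and its transcript rose. It had 149, 77.8, 109 and 92.4 in DKO-labelled libraries, 41.1, 40.1, 46.0 and 40.6 in K2KO, 33.5, 45.6, 31.0 and 62.0 in K4KO and 40.8, 31.5, 33.8 and 59.4 in control. The groups did not overlap, at low counts in every library (log2 1.35 ± 0.25, adjusted p = 0.000206). The related Mx2 had 1089.7, 839.7, 771 and 758 in DKO-labelled libraries, 1078, 1034, 1007 and 943 in K2KO, 908, 1341, 1372 and 1308 in K4KO and 801, 771, 1245 and 927 in control. It overlapped between DKO-labelled and control libraries (log2 -0.10 ± 0.15, adjusted p = 0.667), and 4.38% of its 50-base stretches also occur in Mx1.

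Ifit1 encodes a protein that binds viral RNA lacking cap methylation. It had 2108, 1167, 1212 and 1413 in DKO-labelled libraries, 1894, 1669, 1635 and 1851 in K2KO, 1853, 2299.9, 2466 and 2334 in K4KO and 1989, 1860.5, 1848 and 2166 in control. DKO 2 lay within the controls and the other 3 below them all (log2 -0.45 ± 0.14, adjusted p = 0.0149). Its call was lost without DKO 3 (adjusted p = 0.0673) or DKO 4 (0.0571), and without DKO 2 the change was -0.64 (adjusted p = 7.15e-05). Parp14, an ADP-ribosyltransferase gene, had 9146, 6287, 5279 and 6729.7 in DKO-labelled libraries, 9763, 9963, 8992 and 10466 in K2KO, 7815, 9682, 9371 and 11715 in K4KO and 9389, 8952, 9938 and 10259 in control. It fell by the test with DKO 2 inside the control range (log2 -0.52 ± 0.13, adjusted p = 0.0042).

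Isg15 encodes a ubiquitin-like modifier and is among the earliest genes that type I interferon induces. It had 333, 295, 241 and 224 in DKO-labelled libraries, 431, 274, 412 and 314 in K2KO, 261, 369, 291 and 236 in K4KO and 283, 279, 350.31 and 312 in control. The groups overlapped (log2 -0.17 ± 0.16, adjusted p = 0.464). Rsad2, which encodes viperin, had 7167, 5809, 6038 and 5220.4 in DKO-labelled libraries, 7311, 7919, 7229 and 7561 in K2KO, 3838, 4662, 4790.2 and 6154 in K4KO and 5465, 6364, 5693 and 6768 in control. It lay close to control in the DKO-labelled group (log2 -0.01 ± 0.12), above all controls in K2KO (log2 0.31 ± 0.12, adjusted p = 0.616) and at -0.34 ± 0.12 in K4KO (adjusted p = 0.504). Ifit3 had 2117, 1129, 1211 and 1318 in DKO-labelled libraries, 1607, 1199, 1152 and 1387 in K2KO, 1805, 2202, 2154 and 1979 in K4KO and 1432, 1710.2, 905 and 1739.8 in control. All K4KO libraries were above all controls without passing the test (log2 0.53 ± 0.19, adjusted p = 0.535), and 51.2% of its 50-base stretches also occur in other genes, chiefly Ifit3b, so its counts are uncertain. Oas1a had 527, 391, 359.79 and 407 in DKO-labelled libraries, 392, 335, 370.13 and 392 in K2KO, 331, 322, 367 and 322 in K4KO and 369, 451, 402 and 357 in control, with overlap between groups (log2 0.08 ± 0.11 in DKO-labelled libraries against control). It shares 57.6% of its stretches with Oas1g and Oas1b, so its counts are uncertain too. Xaf1, a gene linked to apoptosis, had 2015, 1548, 1543 and 1669 in DKO-labelled libraries, 1813, 1784, 1688 and 1713 in K2KO, 1958, 2042, 1949 and 1998 in K4KO and 1998, 1921, 1799.9 and 1881 in control (log2 -0.17 ± 0.08, adjusted p = 0.0955). Without DKO 2 it passed the test, at -0.26 (adjusted p = 0.00554).

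The other members of this role had log2 changes between -0.19 for Ifi44 and 0.19 for Bst2, and none passed the test. Bst2, which encodes the virion-retaining protein tetherin, had 2292 to 3087 in DKO-labelled libraries and 2151 to 2347 in control (adjusted p = 0.219). Usp18, a feedback inhibitor of the type I receptor, had 1079 to 1574 against 1098 to 1128 (log2 0.14, adjusted p = 0.336). Ifit2, Oasl2, Ifi44 and Ifi35 had log2 changes of -0.05, 0.09, -0.19 and -0.11. In each of these 6 genes DKO 2 was the top library of its group, and it lay above all controls for every one but Ifi35. Bst2, Usp18 and Oasl2 rose by the test, along with Oas1a, when libraries were scaled to the same median of all tested genes.

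Guanylate-binding proteins, GTPases that assemble on pathogen vacuoles and are induced above all by interferon gamma, held the 2 largest falls among the members. Gbp4 had 3816, 1495, 1289 and 1937 scaled counts in DKO-labelled libraries, 5944, 5732, 5555 and 5808 in K2KO, 7120.2, 7582, 8204 and 9303 in K4KO and 8608, 7234, 6981 and 7361 in control. The highest DKO-labelled library, DKO 2, was still below every other library, and the other 3 stood between 1289 and 1937. The means were 2134 ± 1153 in DKO-labelled and 7546 ± 726 in control libraries (SD, n = 4 each; log2 -1.95 ± 0.21, adjusted p = 6.34e-07). Gbp5, which in mice promotes inflammasome assembly, had 1489, 732, 522 and 823 in DKO-labelled libraries, 1887, 1949, 1883 and 1999 in K2KO, 2037, 2242, 2139.7 and 2312 in K4KO and 2376, 2092, 2265 and 2399.8 in control. It showed the same lack of overlap (log2 -1.46 ± 0.19, adjusted p = 4.99e-06). Without DKO 2 the changes were -2.28 for Gbp4 and -1.74 for Gbp5.

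Gbp2, Gbp3 and Gbp7 fell less, and in each DKO 2 lay within the control range with the other 3 below it. Gbp2 had 6656, 4238, 3844 and 4826 in DKO-labelled libraries, 6578, 6049.9, 6029.7 and 6724 in K2KO, 7471, 6901, 8597 and 7303 in K4KO and 7140.4, 6652, 6621 and 6638 in control (log2 -0.50 ± 0.12, adjusted p = 0.00271). Gbp3 had 4879.8, 2918, 2583 and 3355 in DKO-labelled libraries, 4668, 4242, 4226 and 4716 in K2KO, 4062, 4756, 5226 and 4969.8 in K4KO and 5136, 4351, 4797 and 5415 in control (log2 -0.56 ± 0.14, adjusted p = 0.00347). Gbp7 had 8329, 4999, 4004 and 5780.2 in DKO-labelled libraries, 7778, 7977, 7159.7 and 8799.5 in K2KO, 6817, 8081, 8924 and 9962 in K4KO and 8682, 8081, 8109 and 9052 in control (log2 -0.60 ± 0.16, adjusted p = 0.00463). Gbp7 shares 12.7% of its 50-base stretches with other gene models, so its counts are uncertain. These 3 genes lie beside Gbp5 on chromosome 3, whereas Gbp4 and Gbp6 lie on chromosome 5. Gbp6 had 776, 394, 365 and 500.27 in DKO-labelled libraries, 1076, 842, 911 and 1010 in K2KO, 564, 867, 966 and 1372 in K4KO and 754, 673, 771 and 927 in control (log2 -0.67 ± 0.23, adjusted p = 0.0229). Every 50-base stretch of Gbp6 also occurs in another gene model, among them Gbp10, and its call was lost without DKO 3 (adjusted p = 0.0791), DKO 4 (0.0858) or control 4, so its value is uncertain. With libraries scaled to the same median of all tested genes, all 6 kept a negative change and Gbp4 and Gbp5 alone passed the test.

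**Figure D3:**
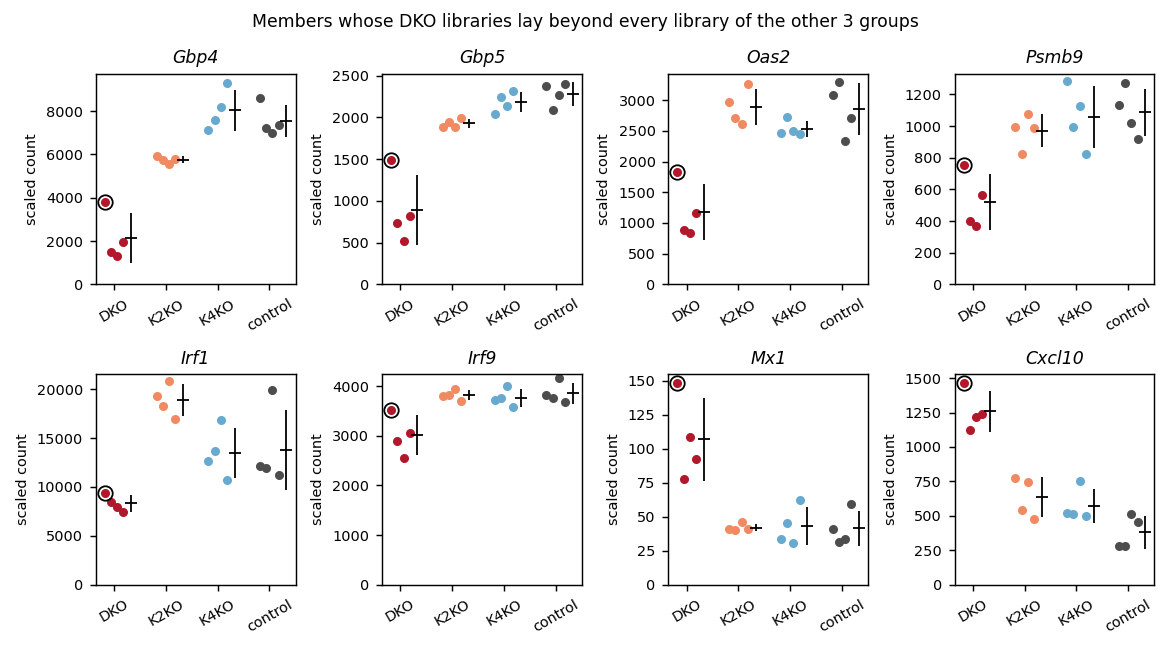
Scaled counts per library for the 8 members whose 4 DKO-labelled libraries lay beyond every library of the other 3 groups, with DKO 2 circled and the mean ± SD beside each group (n = 4). Gbp4, Gbp5, Oas2, Psmb9, Irf1 and Irf9 were lower and Mx1 and Cxcl10 higher in the DKO-labelled group. DKO 2 is the top DKO-labelled point in each panel. The share of all genes lying beyond all 3 other groups was not counted. Against control alone, 18.1% of all genes tested lay wholly below and 18.9% wholly above.

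Immunity-related GTPases, which act on the same vacuoles in mice, fell in 3 of 4 cases. Irgm2 had 2301, 1410.2, 1146 and 1682 scaled counts in DKO-labelled libraries, 2447, 2273, 2382 and 2520.5 in K2KO, 2373, 2346, 2536 and 2589 in K4KO and 2917, 2559, 2211 and 2874 in control (log2 -0.73 ± 0.15, adjusted p = 0.000453). DKO 2 overlapped the controls and the other 3 did not. Iigp1 had 8638, 4658, 4301 and 5030.3 in DKO-labelled libraries, 9283, 8494, 9040.2 and 8178 in K2KO, 8360.1, 8877, 11856 and 11643 in K4KO and 8691, 7345, 9629 and 10112 in control (log2 -0.71 ± 0.17, adjusted p = 0.00249). Here DKO 2 stood far above the other 3, inside the control range. Igtp had 2453, 1367, 1283 and 1538 in DKO-labelled libraries, 2273, 1660.3, 2088 and 1898 in K2KO, 2334, 2202, 2619.6 and 2228 in K4KO and 2272, 2075, 2014 and 2071 in control (log2 -0.39 ± 0.15, adjusted p = 0.0434). DKO 2 was above all controls and the other 3 were below them, and the change without DKO 2 was -0.60 (adjusted p = 0.000132). The Igtp call was lost in 14 of 28 refits, among them those without DKO 3, 4 or 5 (adjusted p = 0.143, 0.159 and 0.0928), and 11.8% of its 50-base stretches are shared with Irgm2. Irgm1, a regulator of the other members of the family, had 3039 to 4409 in DKO-labelled libraries and 3280 to 4368 in control (log2 -0.07 ± 0.11, adjusted p = 0.669).

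The chemokines, which attract T cells through the receptor CXCR3, differed from each other, since 1 of 2 rose. Cxcl10 had 1467, 1120, 1215 and 1236 scaled counts in DKO-labelled libraries, 776, 546, 749 and 476 in K2KO, 519, 516, 753 and 498 in K4KO and 278, 281, 515 and 453 in control. The DKO-labelled libraries were above all other 12, with DKO 2 the highest but close to the other 3. Means were 1259 ± 147 in DKO-labelled and 382 ± 120.5 in control libraries (SD, n = 4 each; log2 1.77 ± 0.20, adjusted p = 8.48e-07). Cxcl9, its neighbour on chromosome 5, had 2418, 1409, 1450.1 and 1916 in DKO-labelled libraries and 1563, 1414, 1854 and 2063 in control, and the groups overlapped (log2 0.04 ± 0.17, adjusted p = 0.89).

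In antigen presentation the inducible proteasome subunit genes among the members, Psmb9 and Psmb8, fell. The genes of the class I molecules themselves did not pass the main test. Psmb9 encodes a catalytic subunit of the immunoproteasome, which cuts proteins into peptides for MHC class I. It had 755, 399, 369.53 and 566 scaled counts in DKO-labelled libraries, 991, 825, 1074 and 991 in K2KO, 1282, 996, 1125 and 820.49 in K4KO and 1133, 1271, 1022 and 919 in control. All DKO-labelled libraries lay below all others (log2 -1.10 ± 0.18, adjusted p = 6.97e-05). Psmb8, a second such subunit, had 2289, 1666, 1607 and 1781 in DKO-labelled libraries, 2385, 1961, 2604 and 2302 in K2KO, 3103, 2453, 3203 and 1917 in K4KO and 2786, 3119, 2589.9 and 2191 in control, with overlap through DKO 2 (log2 -0.54 ± 0.15, adjusted p = 0.00723). Tap1, which encodes a chain of the transporter that carries those peptides into the endoplasmic reticulum, had 2856, 2122, 2236 and 2465 in DKO-labelled libraries and 3269, 3394, 2776 and 2558 in control (log2 -0.31 ± 0.13, adjusted p = 0.0786). It passed the test in 8 of 28 refits, among them that without DKO 2 (-0.39, adjusted p = 0.0336). Exons of Psmb9 and Tap1 overlap by 212 bases on opposite strands, and the sources used here do not say whether counting used the strand.

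The class I heavy chain gene H2-K1 had 23987, 18328, 18892 and 19892 in DKO-labelled libraries, 25993, 20876, 29193 and 24062 in K2KO, 30634, 23504, 33847 and 18610 in K4KO and 25515, 28680, 25290 and 21412 in control (log2 -0.32 ± 0.16, adjusted p = 0.126). H2-D1 had 25027, 22435, 24099 and 22935 in DKO-labelled libraries, 27144, 22479, 31717 and 26595 in K2KO, 34307, 26933, 35836 and 20864 in K4KO and 29208, 33311, 28263 and 23508 in control (log2 -0.26 ± 0.15, adjusted p = 0.179). Both overlapped the controls, and 12.8% of the H2-D1 stretches occur in related class I genes. H2-K1 passed the test as lower in 4 of 28 refits and H2-D1 in 3. B2m, the light chain of class I, had 66932, 50228, 47368 and 57473 in DKO-labelled libraries, 54986, 45315, 51437 and 53695 in K2KO, 52285, 43295, 64152 and 52375 in K4KO and 50090, 51039, 42213 and 53985 in control. The groups overlapped (log2 0.16 ± 0.13, adjusted p = 0.367). B2m passed the test as higher in 1 of 28 refits, that with the same median of all tested genes.

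Across the members, 7 had all 4 DKO-labelled libraries below all controls, namely Gbp4, Gbp5, Oas2, Psmb9, Irf1, Irf9 and Ifih1, and 2 had them all above, Cxcl10 and Mx1. Over all genes tested, 18.1% lay wholly below and 18.9% wholly above. Each of these 9 members had an exact permutation p of 0.0286 (two-sided), which 4 libraries a side cannot go below. The direction and call of 9 of the 20 called members held in all 28 refits with another scaling, filter, tool or without 1 library. These were Cxcl10, Mx1, Gbp4, Gbp5, Oas2, Psmb9, Irf1, Irgm2 and Iigp1. In the authors' deposited table, 2 members were higher and 16 lower at an adjusted p below 0.05 in this comparison. By the same columns, 6094 of the 43629 genes in that table were called, in either direction.

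**Figure D4:**
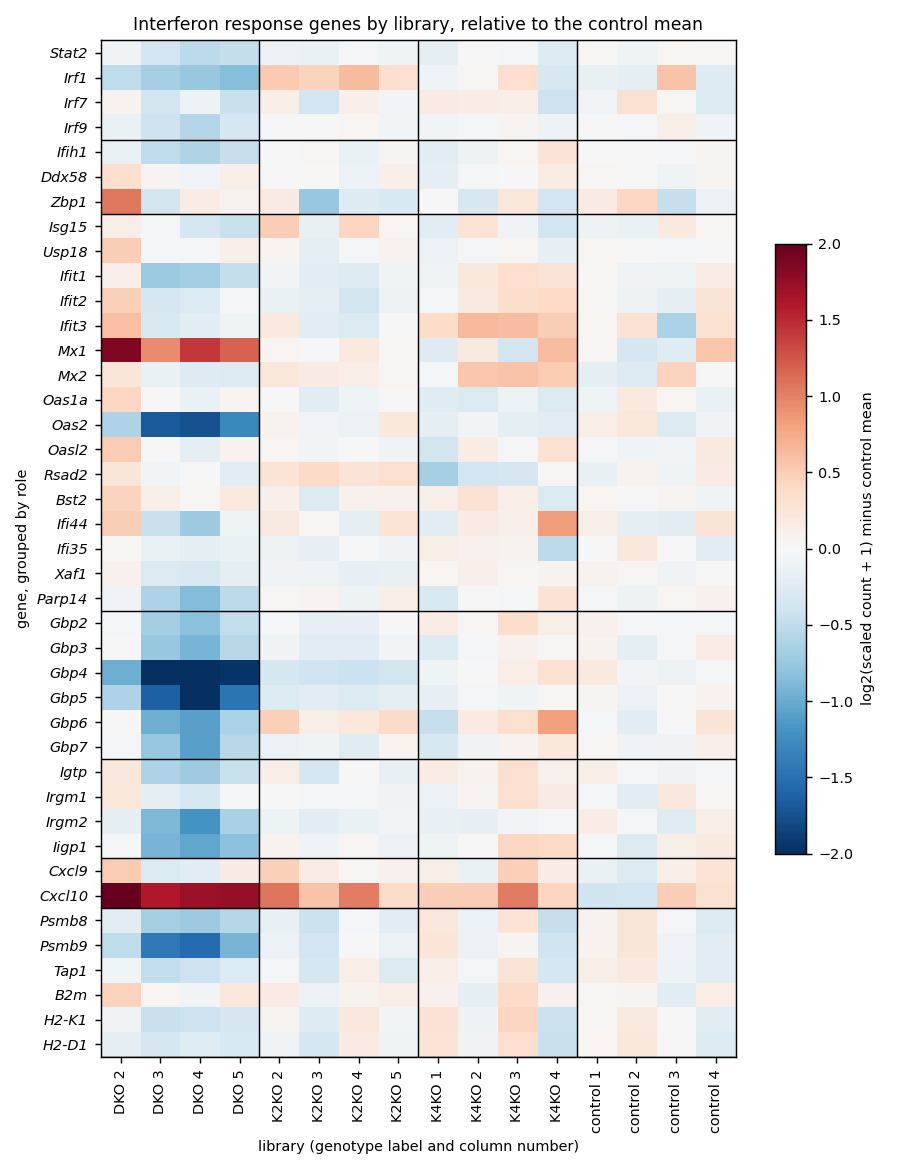
Log2(scaled count + 1) of each member in each of the 16 libraries minus its control mean, with members in rows by role and the colour scale ending at -2 and 2. Gbp4, Gbp5, Oas2 and Psmb9 are blue in all 4 DKO-labelled columns, Mx1 and Cxcl10 are red, and the DKO 2 column is paler or redder than its 3 neighbours.

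The comparisons of each single knockout with control ask how the members stood when 1 factor was targeted. None of the 41 passed the test in K2KO, where 0.168% of all genes did, and none in K4KO, where 0.0630% did. At an unadjusted p below 0.05 there were 3 members in K2KO (Cxcl10, Irf1 and Rsad2) and 4 in K4KO (Cxcl10, Ifit3, Mx2 and Rsad2). Of the 23816 genes tested, 1543 in K2KO and 1681 in K4KO were below that value. The count of members at an adjusted p below 0.05 was 0 in both by edgeR and by DESeq2 as well. Cxcl10 had the smallest adjusted p of the members in both, at log2 0.76 ± 0.20 in K2KO (adjusted p = 0.2) and 0.61 ± 0.20 in K4KO (adjusted p = 0.459). Irf1 averaged 18850 ± 1643 in K2KO and 13810 ± 4106 in control (log2 0.49 ± 0.16, adjusted p = 0.397). Without control 3, the control library with the highest Irf1 and Cxcl10, both genes passed the test in K2KO (adjusted p = 0.0129 and 0.0351). Gbp4 and Gbp5 were lower in all 4 K2KO libraries than in all controls, at log2 -0.39 ± 0.21 and -0.24 ± 0.19 (adjusted p = 0.874 and 0.965). Of all genes, 1.72% lay wholly below control in K2KO and 2.69% wholly above, as Rsad2 did. In K4KO these shares were 1.34%, with no member, and 1.49%, with Ifit3. The widest unadjusted 95% interval of a member's change reached 0.503 to either side on the log2 scale. Changes above that, such as those of Cxcl10 and of Ifit3 in K4KO, still did not pass the adjusted test, so a change of this size could go uncalled. The member medians were -0.03 in K2KO and 0.01 in K4KO, beside 0.03 over all genes in each.

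The DKO-labelled libraries were next set against each single knockout, where control libraries enter only the shared estimate of the spread. Against K2KO, 16 members fell and 2 rose (43.9% called, beside 36.6% of all genes, where 18.9% fell and 17.7% rose). Against K4KO, 21 fell and 4 rose (61% called, beside 39.6% of all genes, where 20.4% fell and 19.1% rose). The share among genes with a mean of at least 100 was not counted for these comparisons. Against control that share was 58.0%, beside 38.3% of all genes. All 4 DKO-labelled libraries lay below all 4 of K2KO for 8 members and above for 2 (20.1% and 19.1% of all genes), and below all 4 of K4KO for 8 and above for 2 (17.2% and 17.1%). Scaled instead to the same median of all tested genes, 6 members fell and 9 rose against K2KO (member median 0.0017). Against K4KO 7 fell and 9 rose (member median -0.02). Of all genes called under that scaling, 70.2% were higher against K2KO and 70.9% against K4KO. These comparisons share the DKO-labelled libraries with the one against control, so their values are given side by side. Gbp4 changed by -1.57 ± 0.21 against K2KO and -2.04 ± 0.21 against K4KO, Oas2 by -1.36 ± 0.17 and -1.17 ± 0.17, and Psmb9 by -0.95 ± 0.18 and -1.05 ± 0.18. Irf1 changed by -1.18 ± 0.16 against K2KO and -0.68 ± 0.16 against K4KO. Cxcl10 rose by 1.01 ± 0.20 and 1.15 ± 0.20, and Mx1 by 1.29 ± 0.25 and 1.30 ± 0.25. Rsad2 fell against K2KO (-0.32 ± 0.12, adjusted p = 0.0429) and rose against K4KO (0.33 ± 0.12, adjusted p = 0.0338). Oas1a rose against K4KO (0.31 ± 0.11, adjusted p = 0.034), and Mx2, Ifit3 and Xaf1 fell against it (-0.51, -0.54 and -0.24). In all, 15 members were lower and 2 higher against each of the other 3 groups. The share of all genes that did so was not counted. Against K2KO, the Rsad2 call was lost without DKO 3, DKO 4, DKO 5, K4KO 3 or any 1 K2KO library. Ifit1, Igtp, Isg15 and Psmb8 passed against K2KO without DKO 2, with 22 members and 8398 of all genes called. Against K4KO, Rsad2 was lost without DKO 2, 3 or 4 or K4KO 1, 2 or 3, and Oas1a without DKO 2 or 5 or K4KO 1, 2 or 4. Against K2KO, Gbp2, Gbp3, Gbp7 and Stat2 each also lost the call without DKO 3 or DKO 4, as Stat2 did against K4KO. Against K4KO, Ifit3 was lost without DKO 3, 4 or 5 or K4KO 2 or 3, and Xaf1 without DKO 3 or 4 or K4KO 2. Without DKO 2, H2-K1, Tap1, Ifi44, Ifit2 and Irgm1 passed against K4KO, with 28 members and 9031 of all genes called.

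The interaction contrast, the DKO minus K2KO difference less the K4KO minus control difference, asks whether the DKO-labelled group departs from the sum of the single changes. It passed the test for 13 members (31.7%, beside 26.7% of all genes), 12 negative and 1 positive (13.8% and 12.8% of all genes). For this contrast the share among genes with a mean of at least 100 was not counted. Scaled instead to the same median of all tested genes, 5 members were negative and 7 positive, beside 73.4% positive among all genes called. The most negative were Gbp4 (-1.66 ± 0.30), Oas2 (-1.20 ± 0.25), Gbp6 (-1.18 ± 0.32), Irf1 (-1.17 ± 0.22) and Gbp5 (-1.16 ± 0.27), and the positive one was Mx1 (1.24 ± 0.35). Cxcl10, which rose in the DKO-labelled group, had an interaction of 0.39 ± 0.28 that did not pass (adjusted p = 0.333). Its log2 changes against control were 0.76 in K2KO and 0.61 in K4KO. Mx2 passed at -0.65 ± 0.22 (adjusted p = 0.0313), but this call was lost in 9 refits without 1 library. Those of Irf9, Ifih1 and Parp14 were lost likewise in 13, 11 and 12 refits. Without DKO 2 the contrast passed for 19 members and 6278 of all genes, beside 6352 of all genes with all 16 libraries. Since neither targeted transcript fell under the DKO label, the contrast describes labelled groups.

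Other genes of the pathway, among them its receptors and kinases, formed a list of 89 entries, of which 85 were found in the table and tested. In DKO-labelled libraries against control 36 of the 85 fell and 14 rose, with a median of -0.22. Over all genes tested, 19.3% were lower and 19.0% higher. In the single knockouts 0 of the 85 passed limma's test. At an unadjusted p below 0.05 there were 7 in K2KO and 6 in K4KO, beside 1543 and 1681 of all 23816 genes tested. By the smallest p, the galectin gene Lgals9 rose (11240 ± 276 in DKO-labelled and 5564 ± 245 in control libraries, log2 1.02 ± 0.07), as did the transcription factor gene Irf8 (log2 2.13 ± 0.16). Ifngr2, a chain of the interferon gamma receptor, rose to 1682, 2077, 2003 and 1841 in DKO-labelled libraries, against 899.5, 854, 895 and 1049 in control (log2 1.04 ± 0.08). Jak2, the kinase bound to that receptor chain, had 7748, 7844, 8667 and 7862 in DKO-labelled libraries and 3995, 3726, 4275 and 4271 in control (log2 0.98 ± 0.09). The other 4 fell, namely the schlafen family gene Slfn2 (log2 -1.35 ± 0.13), the class I-like gene H2-T23 (-1.91 ± 0.19), Cd274, which encodes the T cell inhibitor PD-L1 (-1.27 ± 0.13), and Wars, a tRNA ligase gene induced by interferon gamma (2229 ± 329 in DKO-labelled and 4445 ± 588 in control libraries). Of the remaining receptor and kinase genes, picked after their values were seen to complete the receptors, Ifnar1, Ifngr1 and Jak1 rose (0.41, 0.47 and 0.56), while Ifnar2 and Tyk2 did not pass the test (-0.13 and -0.14).

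Of 12 ligand genes, 10 of interferons and the interleukin genes Il15 and Il18, 6 passed the filter on low values (Ifna2, Ifnb1, Ifng, Ifnk, Il15 and Il18), with log2 changes of -0.51 to -0.06 in DKO-labelled libraries against control, and none passed limma's test (0 at an unadjusted p below 0.05). Ifnb1, the type I interferon of most cell types, had 41.0, 32.1, 56.4 and 12.7 scaled counts in DKO-labelled libraries and 37.1, 26.7, 32.6 and 39.2 in control (log2 -0.09 ± 0.32, adjusted p = 0.865). Ifng was represented by 8 reads over the DKO-labelled libraries and 7 over the controls. Ifna1, Ifnl2 and Ifnl3 had no read in any library.

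**Figure D5:**
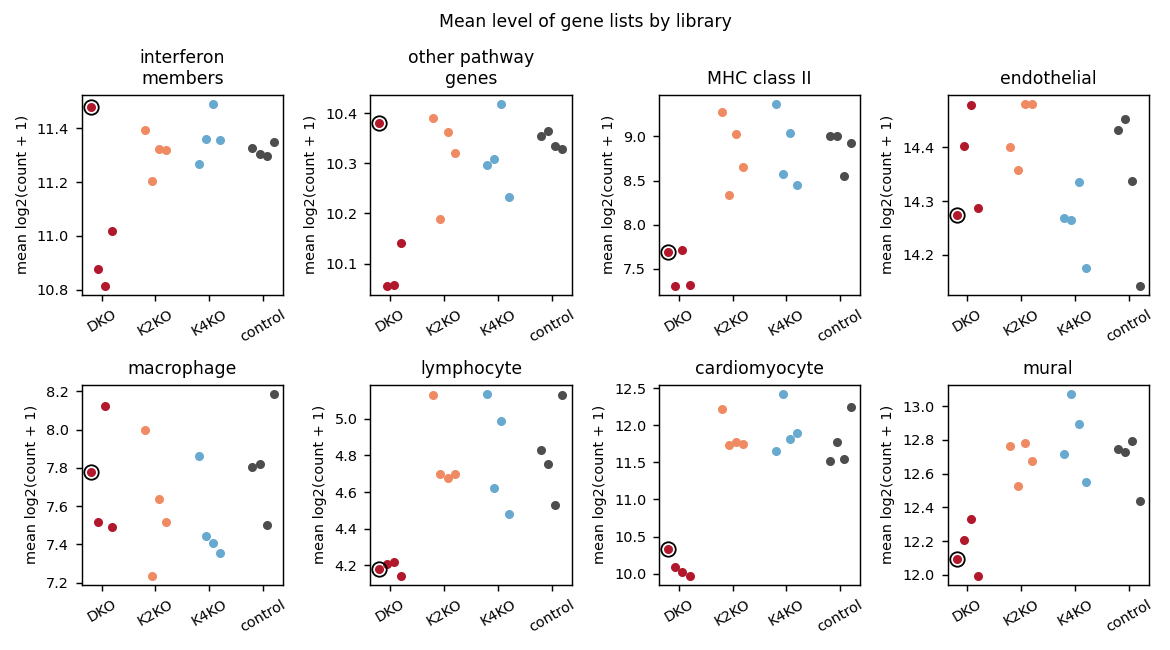
Mean log2(scaled count + 1) per library over the members, over other pathway genes and over marker lists of 6 kinds, by group, with DKO 2 circled. DKO 2 stands above the other 3 DKO-labelled libraries in the panels of the members, of other pathway genes and of cardiomyocyte markers, while lymphocyte, mural and cardiomyocyte markers are lower in all 4 DKO-labelled libraries than in control.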

How the data were processed

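RNA sequencing of 16 samples gave 1 deposited table of 43629 genes. The submitters' processing notes name TopHat, Cuffdiff and the build GRCm38, without versions or roles, and a stranded Illumina kit is named in the labels' protocols. The sources used here do not name the counting tool. Each library column of the deposited table holds a signal that is never negative. In all 16 columns 100% of values were whole multiples of 1 step (tolerance 0.001 reads), so the authors had divided read counts by 1 factor per library, and whole reads were recovered from the steps. The authors also deposited a linear fold change as a ratio, and p-values, from an unnamed test, used only to count their calls.

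The main test was limma 3.58.1 in R 4.3.3 (eBayes, trend) on log2(value + 1). The 23816 genes tested reached a value of 1 in 4 or more libraries. All 16 libraries entered 1 model of 4 group means, the Benjamini-Hochberg adjustment ran over all genes within each comparison, and an adjusted p below 0.05 was called. A log2 change on this scale understates that of low genes. As alternatives, edgeR 4.0.16 and DESeq2 1.42.0 were run on the recovered reads, with other scalings, filters and variance models and without each library in turn. Scaling to the same median of all tested genes and to the same total was added after seeing the data. The scripts were tested on simulated data. Control and K4KO columns carry the label numbers. DKO and K2KO columns are numbered 2 to 5, so they were mapped to their group only. Samples are separate pools of 2 mice, and p-values measure the spread between such pools.

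Sequence sharing was counted as 50-base stretches of a member's GENCODE M21 transcripts that occur in another gene, and stretches above 10% (Gbp6, Oas1a, Ifit3, H2-D1, Gbp7 and Igtp) mark uncertain counts. Members, roles and lists were chosen with earlier results of these data known. Full library values are given for members called in any comparison and for Stat2, Irf1, Irf7, Irf9, Mx1, Isg15, Cxcl10, B2m, H2-K1 and H2-D1. From the other pathway genes the 8 with the smallest p in DKO minus control are named, and from each marker list at most the 3 with the highest mean, not all of which appear. 1 gene of the pathway list is not reported here.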

Additional observations from a re-analysis of the deposited data

Results flagged for a closer look

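Of 164 sets of 4 libraries (41 members in 4 groups), 11 held a library whose gap to its nearest neighbour was large against the range of the set (beyond Dixon's 95% critical value), where chance gives about 1 in 20. In the DKO-labelled group this was Iigp1 in DKO 2, at 8638 scaled counts. In K2KO these were Mx1 in K2KO 4, at 46.0, and Bst2 in K2KO 3, at 1884. In K4KO these were Irf7 in K4KO 4, at 1760.0, Ifi35 in K4KO 4, at 1103, Mx2 in K4KO 1, at 908, Oas2 in K4KO 2, at 2724, and Cxcl10 in K4KO 3, at 753. In control these were Irf1 in control 3, at 19944, Oasl2 in control 4, at 1505, and Gbp2 in control 1, at 7140.4.

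The change under the DKO label departed from the sum of the single knockout changes for 13 members, tested as an interaction in limma. These were 31.7% of the members, beside 26.7% of all genes tested. The log2 values were -1.66 for Gbp4, -1.20 for Oas2, -1.18 for Gbp6, -1.17 for Irf1 and -1.16 for Gbp5. They were -0.90 for Psmb9, -0.87 for Iigp1, -0.65 for Mx2, -0.56 for Gbp2, -0.53 for Parp14, -0.40 for Ifih1 and -0.32 for Irf9. The positive value was 1.24 for Mx1. The calls of Irf9, Parp14, Ifih1 and Mx2 were lost in 13, 12, 11 and 9 refits without 1 library. With libraries scaled to the same median of all tested genes, 5 members were negative and 7 positive.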

How the results depend on the processing

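The number of members called in DKO minus control, 20 as reported, was 15 to 24 over the other scalings, filters, samples, variance models and tools. It was 22 by edgeR, 19 by DESeq2, 24 after quantile normalisation, 23 with the same total and 15 with the same median of all tested genes. In that last setting 70.4% of all called genes were higher, beside 49.7% as reported and 41% with the same total. With a 2-fold change also required, 6 members each were called in DKO minus control, DKO minus K2KO, DKO minus K4KO and the interaction. Of the 23816 genes tested, 3488, 3324, 3765 and 3046 were called under this rule, in the same order. With the same median of all tested genes, DKO minus K4KO called 16 members in place of 25, and 3 called changes turned sign without passing the test. These were Stat2 against K2KO (0.0017), Stat2 against K4KO (0.069) and Xaf1 against K4KO (0.0721). The interaction called 8 in place of 13 with robust limma and no trend, and lost Irf9, Mx2, Gbp2, Ifih1 and Parp14. Leaving out 1 library gave 17 to 22 calls in DKO minus control, 13 to 22 in DKO minus K2KO, 20 to 28 in DKO minus K4KO, 9 to 19 in the interaction, 0 in K4KO minus control and 0 to 2 in K2KO minus control, where the 2 (Irf1 and Cxcl10) came without control 3. Over all genes, leaving out 1 library gave 8224 to 9675 calls in DKO minus control and 7681 to 9344 in DKO minus K2KO. For DKO minus K4KO it gave 8371 to 9705, and for the interaction 5412 to 6842. Where these counts moved, the cause was not tested. With same-numbered K4KO and control libraries as a block, in a model of those libraries alone, 0 members were called and 30 genes in all. The same libraries without the block gave 0 members and 2 genes. The main model of all 16 libraries gave 15 genes. The deviations of same-numbered libraries correlated at 0.0689, 0.0594, 0.122 and 0.348 for numbers 1 to 4. The highest correlation of each K4KO library with a control of another number was 0.2226, 0.0419, 0.0816 and -0.0252. Whether same-numbered libraries share more than a number was not tested. No paired analysis was possible for the DKO and K2KO groups because their column numbers do not match the labels. The median standard error of a member's log2 change was 0.1475, which limits the changes that 4 libraries a group can show.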

Other observations

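MHC class II genes, which present peptides to helper T cells and which interferon gamma induces through the activator CIITA, fell in the DKO-labelled libraries in 6 of 6 cases, beside 19.3% of all genes tested, with a median log2 change of -1.49. The invariant chain gene Cd74 had 842, 729, 1035 and 773 scaled counts in DKO-labelled libraries and 2860.4, 2779, 2364 and 2443 in control (log2 -1.64 ± 0.22, limma adjusted p = 8.43e-06). Ciita, named after its values were seen, had 27.7, 16.1, 25.6 and 20.2 in DKO-labelled libraries and 126, 97.0, 103 and 75.9 in control (log2 -2.12 ± 0.26, adjusted p = 2.67e-06). The mean log2 level of the list in DKO 2 was within the range of the other 3 DKO-labelled libraries. Lymphocyte markers were lower in the same 4 libraries, and the source of the class II transcripts was not tested.

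Nlrc5, the activator of class I genes, had a log2 change of -0.54 (adjusted p = 0.00496) and the feedback inhibitor gene Socs1 one of -1.08 (adjusted p = 0.00146) in DKO-labelled libraries against control. Both were named after their values were seen.

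Within the other groups no library held the top value for as many members as DKO 2 did for 41. The most were 19 for K4KO 3, 17 for K2KO 2 and 17 for control 4.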
